A study of Mus musculus with 2 samples.

Results

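Alveolar macrophages that carried few transcripts of inflammatory chemokines and cytokines made up 408 of the 970 alveolar macrophage barcodes, and 408 of the 19087 barcodes that passed the filters, in single-cell RNA-seq libraries of CD45+ lung cells from mice that inhaled diesel exhaust particles (DEP) and from unexposed mice. They numbered 259 in the DEP library and 149 in the control library. A barcode is the tag of 1 droplet, taken as 1 cell, and a unique molecular identifier (UMI) marks 1 captured RNA molecule. Members were chosen on measured values. A barcode needed 500 UMIs or more, 200 detected genes or more, and no more than 10% of its UMIs in mitochondrial genes. It held at least 10 UMIs summed over Ear1, Plet1, Fabp1, Atp6v0d2 and Krt79, had no UMI of the B cell gene Cd79a, the T cell gene Cd3e or the dendritic cell gene Cd209a, and had under 1% of its UMIs in the neutrophil genes S100a8 and S100a9. Less than 0.1% of its UMIs fell in Cxcl1, Cxcl2, Ccl3, Ccl4, Tnf and Il1a. The 562 barcodes that met every condition but the last are called chemokine-high below.

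The DEP library came from mice that breathed 500 µg/m³ DEP in a whole-body inhalation system for 1 hour a day, 5 days a week, over 2 weeks, and the control library from mice that were not exposed. Lungs were perfused, minced and digested with Collagenase V and DNase I, CD45+ cells were isolated by FACS, and 3′ libraries were made with the 10x Genomics v3.1 chemistry and sequenced on a NovaSeq. Both libraries are labelled Ccr2-/- (KO), the DEP library with CD45.3+ and the control library with CD45.1+, while the design text also names C57BL/6J wild-type mice, so the genotype is given here only as labelled. Age and the number of animals behind each library are not given in the sources used here.

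Each group is 1 library. No spread between animals could be measured, no test was made, and exposure cannot be told apart from any other difference between the libraries. Levels are UMIs per 1000000 of the members' summed UMIs (CPM), with exact Poisson intervals in brackets. Ratios are log2 of DEP over control with exact binomial intervals. All intervals are at 95% and cover counting error only. A gene is said to have risen or fallen only where the bound of its interval nearest 0 was beyond 1.5-fold, which is a rule of size and not a test.

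Alveolar macrophages live on the air side of the alveolus, where they take up inhaled particles and clear used surfactant, a lipid and protein film. Their identity depends on GM-CSF from the epithelium, which maintains the transcription factor PPARγ, and they renew themselves locally by division. In response to damage they can release chemokines such as Cxcl1 and Cxcl2, which draw neutrophils, and Ccl3 and Ccl4, which draw monocytes and lymphocytes.

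The members were deeply sampled in both libraries. They held 4333592 UMIs in the DEP library and 2725926 in the control library, with a median of 15683 UMIs a barcode (1097 to 59355) against 17128 (2161 to 50098), and a median of 3884 genes against 4168. The median mitochondrial share was 3.42% in DEP members and 3.40% in control members. The libraries shared 23 cell barcodes, none of them a member's. Ccr2, the targeted gene by the labels, was counted in both: 165 UMIs or 38.1 CPM [32.5 to 44.3] in DEP members and 67 UMIs or 24.6 CPM [19.1 to 31.2] in control members, and 213.5 against 141.3 CPM in barcodes outside the alveolar macrophages. The deleted stretch is not stated, so a 3′ count does not check the label.

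Members were a larger share of the DEP library. They were 2.76% [2.43 to 3.11] of DEP barcodes and 1.54% [1.30 to 1.80] of control barcodes, a ratio of 1.79 [1.46 to 2.21]. All alveolar macrophages showed a ratio of 1.57 [1.38 to 1.79], at 6.24% of DEP barcodes and 3.96% of control barcodes. Within the alveolar macrophages, the chemokine-low share was 44.2% [40.1 to 48.3] in the DEP library and 38.8% [33.9 to 43.9] in the control library, a ratio of 1.14 [0.928 to 1.40], whose interval includes 1. A share of sorted cells depends on the other cells in the sort, so it gives no cell number per lung.

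The chemokine limit did not fall in a gap. Between 0.09% and 0.1% of UMIs, just inside, lay 15 DEP and 5 control barcodes, and between 0.1% and 0.11%, just outside, 12 DEP and 3 control barcodes. Lpl stood at 2634 CPM in the DEP barcodes and 3290 CPM in the control barcodes just inside, and at 3460 and 3322 CPM just outside. Cxcl2 stood at 400 and 579 CPM in DEP and control barcodes inside the limit and at 501 and 557 CPM outside it. No UMI of any of the 6 genes was found in 43 of 259 DEP members (16.6% [12.3 to 21.7]) and in 15 of 149 control members (10.1% [5.74 to 16.1]). The median share of the 6 genes was 0.0244% in DEP members and 0.0319% in control members, against 0.344% and 0.354% in the chemokine-high barcodes. The plot of chemokine share by barcode shows a continuous range on both sides of the limit.

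**Figure D1:**
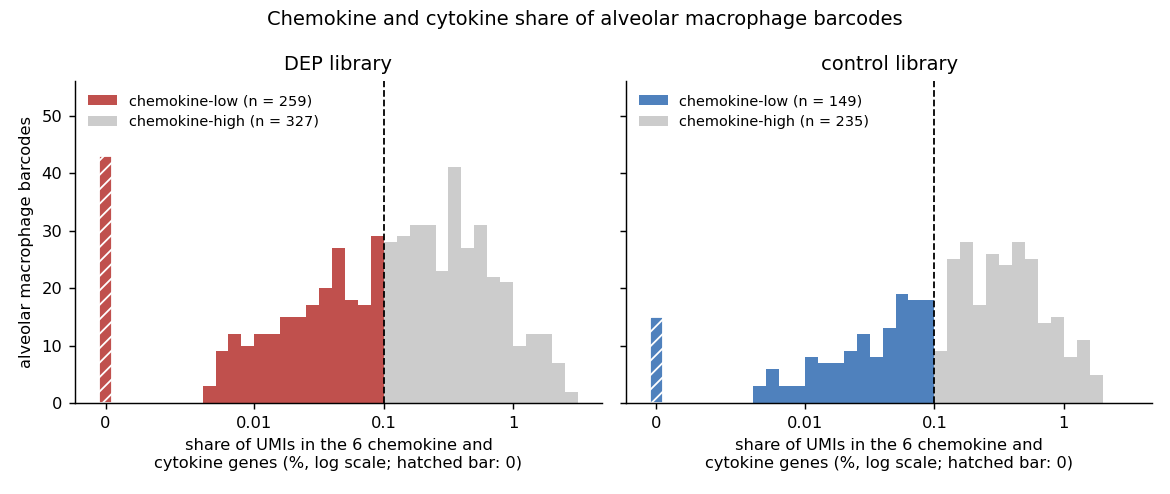
Number of alveolar macrophage barcodes by the share of their UMIs in Cxcl1, Cxcl2, Ccl3, Ccl4, Tnf and Il1a (percent, log scale, with barcodes at 0 in the hatched bar), in the DEP library (left) and the control library (right). Coloured bars are the 259 DEP and 149 control members, grey bars the 327 and 235 chemokine-high barcodes, and the dashed line is the 0.1% limit, on both sides of which barcodes lie close.

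The genes that set the selection are described without support. Among the markers, Plet1 stood at 1179 CPM in DEP members and 1350 CPM in control members, Ear1, an RNase of the eosinophil-associated family, at 916 and 1033 CPM, Fabp1, a fatty acid binding protein, at 818 and 662 CPM, Atp6v0d2, a subunit of the vacuolar proton pump, at 725 and 712 CPM, and Krt79, a keratin, at 540 and 561 CPM. Among the chemokines and cytokines, Cxcl2 stood at 144 CPM in DEP members and 164 CPM in control members, against 3358 and 2866 CPM in the chemokine-high barcodes. Tnf had 92.5 and 90.6 CPM in DEP and control members, Il1a 51.9 and 67.5 CPM, Ccl3 40.6 and 51.0 CPM, Cxcl1 22.1 and 12.5 CPM, and Ccl4 10.4 and 9.17 CPM. The limit on the 6 genes kept all of these low in both libraries.

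Alveolar macrophage markers that took no part in the selection were high in the members of both libraries. Lpl, the lipoprotein lipase, stood at 3004 CPM [2952 to 3056] in DEP members and 3153 CPM [3086 to 3220] in control members, against 179 and 298 CPM outside the alveolar macrophages. Chil3, a chitinase-like lectin, stood at 10763 and 11593 CPM in DEP and control members, and Ear2, an RNase like Ear1, at 2091 and 2250 CPM. Their log2 ratios were small, at -0.07 [-0.11 to -0.03] for Lpl and -0.11 for both Chil3 and Ear2. With each barcode thinned to 2000 UMIs, Lpl was found in 96.1% of 258 DEP members and 95.3% of 149 control members, against 1.38% and 1.57% of B cells, which should lack it. Without thinning the Lpl shares were 97.7% and 99.3%, and median depth was 3728 UMIs in DEP B cells and 3455 in control B cells.

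Of 25 counted alveolar macrophage markers outside the selection, 10 were higher and 15 lower in DEP members and none passed 1.5-fold, and their median log2 ratio of -0.11 was close to the -0.09 of all 8304 genes with at least 50 UMIs. Car4, a membrane-bound carbonic anhydrase of the gas exchange surface that these macrophages also express, stood at 396 CPM [377 to 415] in DEP members and 245 CPM [227 to 264] in control members, a log2 ratio of 0.69 [0.56 to 0.82]. The median barcode had 191 CPM of Car4 in the DEP library and 104 CPM in the control library, and the third quartile was 563 against 387 CPM. In chemokine-high barcodes Car4 was 377 CPM in the DEP library and 381 CPM in the control library. The Car4 difference did not rest on 1 barcode, since the log2 ratio was 0.67 without the barcode richest in Car4 in each library and 0.87 without the barcodes richest in markers of other cell types, defined below.

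Other markers lay on both sides of 0. The fatty acid carriers Fabp5 and Fabp4 stood higher in DEP members, Fabp5 at 928 CPM [900 to 957] against 643 CPM [613 to 674] and Fabp4 at 426 CPM against 333 CPM, with log2 ratios of 0.53 [0.45 to 0.61] and 0.35 [0.24 to 0.47]. Marco, a scavenger receptor that binds particles and bacteria, stood at 344 CPM in DEP members and 253 CPM in control members (0.44 [0.31 to 0.58]). Lower in DEP members were Cidec, a lipid droplet protein, at 281 CPM against 318 CPM (-0.18 [-0.31 to -0.05]), and the receptors and lineage regulator that follow. Siglecf, a sialic acid receptor, stood at 131 CPM in DEP members and 163 CPM in control members, Itgax, the CD11c integrin chain, at 301 and 370 CPM, the mannose receptor Mrc1 at 841 and 963 CPM, and Pparg at 117 and 143 CPM, with log2 ratios from -0.32 to -0.20. None of these 8 genes passed 1.5-fold. In the plot of marker levels the DEP and control members lie close together and far to the right of other barcodes. For Plet1, Ear1, Fabp1, Atp6v0d2 and Krt79, which are also plotted, the selection itself set the distance from other barcodes.

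**Figure D2:**
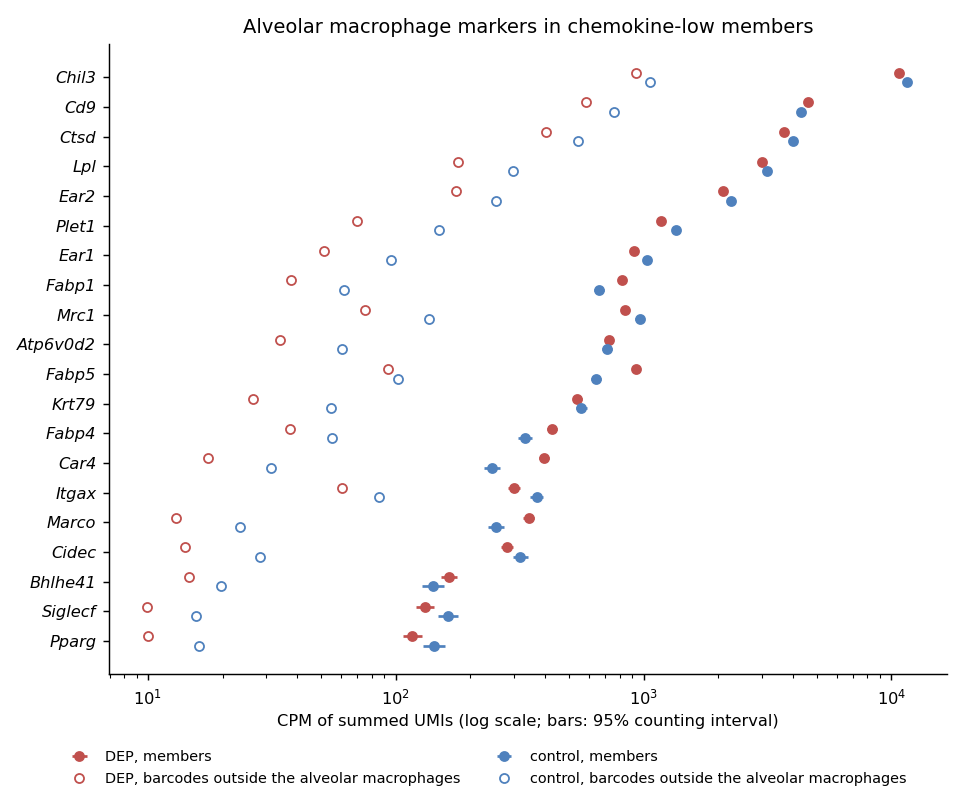
CPM of summed UMIs (log scale) of alveolar macrophage markers in DEP members (filled red), control members (filled blue) and barcodes outside the alveolar macrophages (open circles in the same colours), with 95% counting intervals. Plet1, Ear1, Fabp1, Atp6v0d2 and Krt79 are genes of the selection, which fixed their distance from other barcodes. Lpl is at 3004 and 3153 CPM in DEP and control members against 179 and 298 CPM outside, and Car4 and Fabp5 are the markers with DEP members most clearly to the right of control members.

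Over all 8304 genes, 31 rose and 62 fell in DEP members, which is 0.373% and 0.747% of the genes. With the 2 libraries scaled by the median of ratios, which moves every log2 ratio up by 0.08, 42 rose and 45 fell, so the split between directions depends on the scaling. The naming rule took the 15 largest changes in each direction and left out genes whose level in the members was less than 0.5 times that in barcodes outside the alveolar macrophages, where free RNA could supply the UMIs. It left 9 higher genes, since 22 of the 31 were below that level, and 15 lower genes.

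Genes of DNA replication and cell division were lower in DEP members. All 27 genes of a cell cycle list were lower, 11 of them past 1.5-fold and 24 with an interval below 0, with a median log2 ratio of -0.83, against 62 of 8304 genes past 1.5-fold lower and a median of -0.09 overall. In the chemokine-high barcodes the same 27 genes had a median of 0.21. Over all alveolar macrophages, without the chemokine limit, it was -0.35. All 15 of the named lower genes are known for roles in the cell cycle.

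Top2a, the topoisomerase that untangles sister chromosomes, had 163 UMIs or 37.6 CPM [32.1 to 43.9] in DEP members and 378 UMIs or 138.7 CPM [125 to 153] in control members, a log2 ratio of -1.88 [-2.16 to -1.61]. That is 3.69-fold lower [3.06 to 4.46] in DEP members. In chemokine-high barcodes Top2a stood at 71.8 CPM in the DEP library and 41.3 CPM in the control library. Among replication genes, Rrm2, a subunit of ribonucleotide reductase, stood at 14.3 CPM in DEP members and 47.7 CPM in control members (-1.73). The replication clamp partner Pclaf stood at 26.5 and 74.5 CPM (-1.49), the helicase subunit Mcm7 at 20.3 and 57.2 CPM (-1.49) and the DNA ligase Lig1 at 10.2 and 34.9 CPM (-1.77). Uhrf1, which guides maintenance of DNA methylation, stood at 4.61 and 24.2 CPM (-2.37), and the histone chaperone Asf1b at 8.08 and 27.9 CPM (-1.78). All of these replication genes fell.

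Mitotic genes fell as well. Cdk1, the kinase that drives entry into mitosis, stood at 20.1 CPM [16.1 to 24.8] in DEP members and 57.6 CPM [48.9 to 67.3] in control members (-1.52 [-1.92 to -1.13]), its partner Ccna2 at 14.1 and 40.0 CPM (-1.50), and the chromosome passenger kinase Aurkb at 6.46 and 23.9 CPM (-1.87). The transcription factor Foxm1, which switches on mitotic genes, stood at 6.00 and 20.5 CPM (-1.76), and the mitotic kinase Pbk at 3.23 and 19.1 CPM (-2.53). Ncaph of condensin, Esco2, which acetylates cohesin, and Spc24 of the kinetochore had log2 ratios of -2.40, -2.02 and -1.74. Mki67, the proliferation antigen, was past the fold at 49.6 CPM in DEP members and 108.2 CPM in control members (-1.12 [-1.39 to -0.87]). After thinning to 2000 UMIs, Mki67 was found in 4.26% [2.15 to 7.5] of DEP members and 9.40% [5.23 to 15.3] of control members, against 0.332% and 0.689% of B cells. Without thinning, the Mki67 shares of members were 11.2% and 14.8%.

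These UMIs came from few barcodes. With cycling taken as at least 5 UMIs of Mki67, Top2a, Cdk1 and Birc5, a limit chosen after the levels were seen, 13 of 259 DEP members (5.02% [2.70 to 8.43]) and 19 of 149 control members (12.8% [7.86 to 19.2]) were cycling, a ratio of 0.394 [0.179 to 0.840]. They held 90.4% of the UMIs of these 4 genes in DEP members and 96.9% in control members. Among chemokine-high barcodes, 20 of 327 in the DEP library (6.12%) and 13 of 235 in the control library (5.53%) were cycling, a ratio of 1.11 [0.523 to 2.42]. Over all alveolar macrophages the shares were 5.63% and 8.33%, a ratio of 0.676 [0.403 to 1.14]. Put the other way, 13 of the 33 cycling DEP alveolar macrophages (39.4% [22.9 to 57.9]) and 19 of the 32 cycling control ones (59.4% [40.6 to 76.3]) lay under the chemokine limit, against 44.5% and 36.9% of the others. The interval of the ratio thus excludes 1 among members and includes it among chemokine-high barcodes and over all alveolar macrophages. The difference between chemokine-low and chemokine-high barcodes was not tested.

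The cycling members carried alveolar macrophage transcripts, at lower levels than the others. Lpl stood at 1286 CPM in the 13 DEP barcodes and 1981 CPM in the 19 control barcodes, and at 3296 and 3393 CPM in DEP and control members with no UMI of the 4 genes. Ear2 showed the same order, at 940 and 685 CPM in cycling DEP and control members and 2244 and 2649 CPM in members with none. Cd74, the MHC class II chaperone, was at 4897 and 4850 CPM in cycling DEP and control members, against 2253 and 933 CPM in those with none. Cycling members were deeper, with a median of 21317 UMIs in DEP barcodes and 26639 in control barcodes. Their genes also differed between libraries, since 12 replication genes summed to 1026 CPM in the DEP barcodes and 2080 CPM in the control barcodes, while 11 mitosis genes summed to 3120 and 2110 CPM. These sums rest on 13 and 19 barcodes and were grouped after the levels were seen. The deepest of the 13 DEP barcodes, at 59355 UMIs, held 34.5% of the DEP members' Ccnb1 UMIs, 32.6% of Prc1 and 30.7% of Ube2c. It also held 82.5% of their Ccr7 UMIs, and 1.63% of its own UMIs were in markers of other cell types. In the control library, 1 member held 30.8% of the members' Ccnb1 UMIs and 31.4% of Ube2c.

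**Figure D3:**
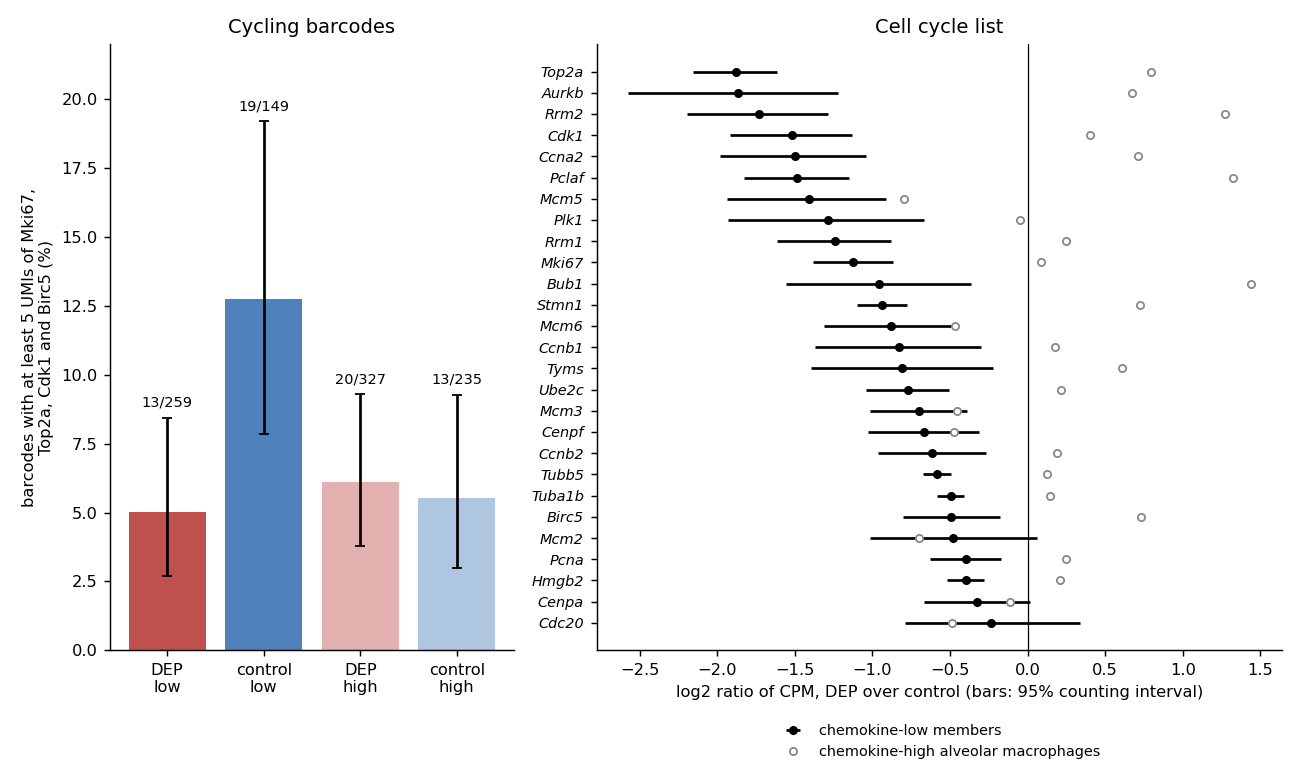
Left, percent of barcodes with at least 5 UMIs of Mki67, Top2a, Cdk1 and Birc5 in DEP and control members (low) and in DEP and control chemokine-high barcodes (high), with 95% Clopper-Pearson intervals and counts above the bars. Right, log2 ratio of CPM, DEP over control, for the 27 cell cycle genes in members (filled, with 95% counting intervals) and in chemokine-high barcodes (open). All 27 filled points lie left of 0, while the bar of DEP members is the lower of the 2 low bars at 5.02% against 12.8%.

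All 27 listed genes had lower levels in DEP members, 11 of them past 1.5-fold. Promoters are printed here for Top2a, Cdk1 and Asf1b, the named lower genes whose windows hold both kinds of cell cycle element. Rrm2, a named lower gene that holds 1 of the 2 elements, is printed for contrast. Sequences are RefSeq promoter windows on GRCm38.p6, read 5′ to 3′ on the gene's strand around the annotated start. Capitals mark TTTGAA, the letters of a cell cycle gene homology region, or its complement TTCAAA, and CCAAT, the letters bound by the factor NF-Y, or its complement ATTGG. Top2a is at chr11:99024170-99024299 on the minus strand, Cdk1 at chr10:69352893-69353022 on the minus strand, Asf1b at chr8:83955584-83955713 on the plus strand and Rrm2 at chr12:24708144-24708273 on the plus strand.
Top2a: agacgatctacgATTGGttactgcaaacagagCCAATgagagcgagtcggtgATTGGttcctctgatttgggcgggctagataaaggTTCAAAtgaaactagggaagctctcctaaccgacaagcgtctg
Cdk1: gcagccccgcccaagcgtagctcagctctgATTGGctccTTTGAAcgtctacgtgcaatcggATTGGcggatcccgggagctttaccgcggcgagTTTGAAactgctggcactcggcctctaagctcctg
Asf1b: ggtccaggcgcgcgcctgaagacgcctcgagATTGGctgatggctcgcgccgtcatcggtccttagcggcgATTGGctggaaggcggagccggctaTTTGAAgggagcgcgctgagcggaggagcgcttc
Rrm2: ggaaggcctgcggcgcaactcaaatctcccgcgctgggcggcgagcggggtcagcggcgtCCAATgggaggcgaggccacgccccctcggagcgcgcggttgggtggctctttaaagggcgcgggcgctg
Within the window from 250 bases before to 50 after the start, Top2a held 2 TTTGAA and 6 CCAAT matches, Cdk1 2 and 3, Asf1b 1 and 4, and Rrm2 none and 1. A window was found for 24 of the 27 listed genes. CCAAT was in 21 of these 24 (87.5%), against 37.4% of 32851 windows of all genes, and TTTGAA in 11 (45.8%), against 17.9%. Both were in 11 windows (45.8%), against 6.95% of all windows. For the 15 named lower genes, 9 of which had a window, CCAAT was in 9 of 13 windows (69.2%) and TTTGAA in 3 (23.1%), the last near the share of all windows. Both strands were searched, and no match of one motif overlapped a match of the other in the printed sequences. The 27 genes were listed as cell cycle genes, so their motif shares describe that class, whatever their DEP over control ratios. A match is a description of letters, and no binding was measured here.

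Single genes of lipid handling were lower in DEP members, while the lists that hold them lay near all genes, as given below. Lpin1, a phosphatidic acid phosphatase that makes diacylglycerol, stood at 229 CPM [215 to 243] in DEP members and 342 CPM [321 to 365] in control members, a log2 ratio of -0.58 [-0.71 to -0.45]. The cholesterol exporter Abca1 stood at 87.7 CPM [79.1 to 97.0] in DEP members and 130 CPM [117 to 145] in control members (-0.57 [-0.78 to -0.36]). Its partner Abcg1 stood at 1277 and 1503 CPM (-0.23), and Npc1, which lets cholesterol out of lysosomes, at 128 and 166 CPM (-0.38). All 4 intervals lay below 0 and none passed 1.5-fold. The lipid droplet coat Plin2, at 1069 CPM in DEP members and 1084 CPM in control members, differed by less than its counting error.

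Lpin1, Abca1 and Npc1 were also lower in DEP chemokine-high barcodes, with log2 ratios of -0.39, -0.47 and -0.39. Of 20 genes of surfactant lipid uptake and breakdown 8 were higher and 12 lower in DEP members (median -0.08), of 24 genes of lipid storage, transport and efflux 8 and 16 (median -0.14), and of 34 lysosome and vacuolar ATPase genes 10 and 24 (median -0.11). Across all 9821 genes with at least 20 UMIs, 37.4% were higher in DEP members, with a median of -0.09. No gene of these 3 lists passed 1.5-fold, and their medians were close to that of all genes. Median-of-ratios scaling raises each of them by 0.08, which takes the first to about 0.

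Genes of cholesterol synthesis were higher in DEP members by small amounts. Of 23 counted genes of cholesterol and fatty acid synthesis, 18 were higher, 7 of them with an interval above 0, and none passed 1.5-fold, with a median log2 ratio of 0.27, against 36.6% of all genes higher. Idi1, which makes an isoprenoid unit, had 154 UMIs or 35.5 CPM [30.2 to 41.6] in DEP members and 56 UMIs or 20.5 CPM [15.5 to 26.7] in control members (0.78 [0.34 to 1.26]). Msmo1, which removes methyl groups from sterols, stood at 45.7 CPM in DEP members and 28.2 CPM in control members (0.69 [0.31 to 1.09]). Hmgcs1, an early step, stood at 80.8 and 63.8 CPM (0.34 [0.07 to 0.61]). Scd1, a fatty acid desaturase, stood at 13.1 CPM in DEP members and 22.4 CPM in control members (-0.77), below its 84.9 and 146.9 CPM in barcodes outside the alveolar macrophages.

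In chemokine-high barcodes the same synthesis list had a median of -0.06, with Idi1 at 40.9 CPM in the DEP library and 43.0 CPM in the control library. The control members had the lowest Idi1 level of the 4 sets of alveolar macrophages. The difference between chemokine-low and chemokine-high barcodes was not tested.

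Genes that answer particles, metals and oxidants showed no common direction. Of 26 counted NRF2 and oxidative stress genes 11 were higher and 15 lower in DEP members (median -0.07, and about 0 under median-of-ratios scaling). Hmox1, which breaks down haem, rose, at 166 CPM [154 to 179] in DEP members and 91.7 CPM [80.7 to 104] in control members (0.86 [0.65 to 1.07]), but 45.1% of its DEP UMIs lay in 1 barcode, and without that barcode the log2 ratio was 0.00. Srxn1, which restores peroxiredoxins, stood at 20.1 CPM in DEP members and 34.1 CPM in control members (-0.76 [-1.20 to -0.33]), and Slc7a11, the cystine importer, at 24.0 and 38.9 CPM (-0.70 [-1.10 to -0.29]). The peroxidases Gpx1, at 1461 and 1524 CPM, and Prdx1, at 1363 and 1277 CPM, differed by little. Ferritin chains were near equal, with Fth1 at 14971 CPM in DEP members and 13818 CPM in control members and Ftl1 at 8753 and 8658 CPM.

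The same DEP barcode, with 37788 UMIs, held 45.3% of the DEP members' Hspa1a UMIs, 37.8% of those of Hspa1b and 35.7% of those of Hsp90aa1, all genes of heat shock chaperones. Hspa1a rose to 299 CPM in DEP members, against 121 CPM in control members (1.30 [1.13 to 1.48]), and Hspa1b to 338 CPM against 161 CPM (1.07 [0.91 to 1.22]). Without this barcode their log2 ratios were 0.45 and 0.39.

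Ahr, the receptor for aromatic hydrocarbons, rose, with 127 UMIs or 29.3 CPM [24.4 to 34.9] in 28 DEP members and 19 UMIs or 6.97 CPM [4.20 to 10.9] in 8 control members, a log2 ratio of 2.04 [1.37 to 2.85]. It was found in 10.8% of DEP members and 5.37% of control members, and after thinning in 2.71% [1.10 to 5.51] and 1.34% [0.163 to 4.76], against 2.43% and 3.1% of B cells. Without the 10% of members richest in markers of other cell types its log2 ratio was 0.32, or 1.97 [1.00 to 3.23] with the MHC class II genes left out of those markers, and in chemokine-high barcodes it was 0.03. Tiparp, a target of the receptor, stood at 76.1 CPM in DEP members and 82.2 CPM in control members (-0.11 [-0.36 to 0.14]). Of the 12 genes listed for this receptor and its targets, 4 had no UMI in DEP members and 4 had none in control members.

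Markers of other cell types sat mostly in a minority of members. Their share, summed over markers of interstitial macrophages, monocytes, dendritic cells, neutrophils, B cells, T cells and NK cells, had a median of 0.0964% of UMIs in DEP members (0 to 6.70%) and 0.107% in control members (0.0220% to 5.06%). Monocyte markers summed to 668 CPM in DEP members and 499 CPM in control members, and 6 of 10 were higher, 2 of them past 1.5-fold. Of all 9821 genes with at least 20 UMIs outside the selection, 37.4% were higher in DEP members. Past 1.5-fold were 42 of the 9821 higher and 91 lower. Plac8 stood at 262 CPM [247 to 278] in DEP members and 57.6 CPM [48.9 to 67.3] in control members (2.18 [1.94 to 2.44]). After thinning, Plac8 was found in 7.36% of DEP members and 4.03% of control members, against 53.7% and 48.6% of B cells, which express this gene and so give no background for it. Its level outside the alveolar macrophages was also higher in the DEP library, at 1223 against 579 CPM. Without the 10% of members richest in these markers the log2 ratio of Plac8 was 1.42, and with MHC class II genes left out of the markers it was 1.28. Interstitial macrophage markers summed to 3592 and 2520 CPM in DEP and control members, most of it Cd74 and H2-Ab1. Of the 14, 8 were higher and 6 lower, 1 past 1.5-fold higher and 3 past 1.5-fold lower, with a median of 0.07. Folr2 had a log2 ratio of -1.83 and Stab1 of -1.36, and 1 barcode held 96.9% and 94.9% of their UMIs in control members. Dendritic cell markers summed to 134 and 79.6 CPM, and all 7 counted were higher, 1 past 1.5-fold (median 0.76). In 10 barcodes of each library lay 78.1% and 90.3% of these dendritic cell marker UMIs, and the median was 0.17 without likely doublets, near 0 without the deepest 5% of members and -0.18 at a chemokine limit of 0.05%. Neutrophil markers summed to 121 and 105 CPM in DEP and control members, B cell markers to 42.7 and 67.9 CPM, NK cell markers to 78.0 and 91.7 CPM and T cell markers to 8.54 and 22 CPM.

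Most MHC class II genes, which present antigen to helper T cells, were higher in DEP members when UMIs were summed. The median barcode went the other way. Its share of UMIs in this list was 0.328% in DEP members and 0.352% in control members, and its Cd74 level was 104 and 164 CPM. Of 13 counted genes 10 were higher, 6 with an interval above 0 and none past 1.5-fold. The share higher among all 9821 genes with at least 20 UMIs was 37.4%. The list's median log2 ratio was 0.30 in members and -0.51 in chemokine-high barcodes. Cd74 stood at 2431 CPM [2385 to 2478] in DEP members and 1641 CPM [1594 to 1690] in control members (0.57 [0.52 to 0.62]), and the chains H2-Ab1 and H2-Eb1 at 945 and 716 CPM in DEP members against 657 and 478 CPM in control members. Barcodes with at least 1% of UMIs in these genes, 25 of 259 DEP members (9.65%) and 13 of 149 control members (8.72%), held 62.9% and 52.0% of the MHC class II UMIs. Because 2 genes, Cd74 and H2-Ab1, are in both lists, the share of other cell types' markers in these barcodes was taken without them. It had a median of 0.184% in the DEP library and 0.126% in the control library, against 0.0713% and 0.0740% in the remaining members. Without the 10% of members richest in markers so defined, the median of the list was 0.29, with Cd74 at 0.67 [0.60 to 0.75] and H2-Eb1 at 1.11 [0.97 to 1.26]. With Cd74 and H2-Ab1 kept among the markers the median was -0.10, a setting that removes barcodes by the listed genes themselves. Both removals were chosen after the data were seen.

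Inflammatory genes that took no part in the selection showed no common direction. Of 29 counted, 16 were higher and 13 lower in DEP members (median 0.06), and 3 rose. Of all 9821 genes with at least 20 UMIs, 37.4% were higher (median -0.09) and 42 rose. Il1b, the secreted interleukin, stood at 430 CPM [411 to 450] in DEP members and 200 CPM [184 to 217] in control members (1.11 [0.97 to 1.25]), far below the 5234 and 3846 CPM outside the alveolar macrophages. Thinned Il1b shares were 16.3% and 17.4% of DEP and control members against 16.5% and 17.7% of B cells, so they are at background, and its log2 ratio was 0.38 without the members richest in other markers and 1.06 with MHC class II genes left out of those markers. Ptgs2, the inducible cyclooxygenase, at 37.1 CPM in DEP members and 8.80 CPM in control members (2.05), had a log2 ratio of 0.55 without the members richest in other markers and -0.23 with MHC class II genes left out of them, and Saa3, an acute phase protein, had 91 UMIs in DEP members, 86.8% of them in 1 barcode, and 1 in control members. Tnfaip2, a TNF-induced gene abundant in members, stood at 811 CPM in DEP members and 1101 CPM in control members (-0.44 [-0.51 to -0.37]). Nfkbia, the inhibitor of NF-κB, was near equal at 877 and 926 CPM.

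The interferon response list had a median of 0.11 over 20 genes, 12 higher and 8 lower in DEP members, with 3 past 1.5-fold. Of all 9821 genes with at least 20 UMIs, 37.4% were higher, and 42 of the 9821 were past 1.5-fold higher. Ifitm3, an antiviral membrane protein, stood at 209 CPM in DEP members and 92.1 CPM in control members (1.18 [0.98 to 1.39]), and at 1401 and 856 CPM outside the alveolar macrophages. Its log2 ratio was 0.51 without the members richest in other markers and 1.00 with MHC class II genes left out of them. Of the alternative activation genes, 4 of 15 were higher and 11 lower, with a median of -0.24. Tgm2, a transglutaminase, stood at 257 CPM [242 to 273] in DEP members and 397 CPM [373 to 421] in control members (-0.63 [-0.75 to -0.50]), and Il4ra, the interleukin 4 receptor chain, at 50.1 and 74.8 CPM (-0.58 [-0.86 to -0.30]). Both intervals lay below 0 without passing 1.5-fold, and in chemokine-high barcodes the ratios were -0.39 and -0.38.

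The chains of the GM-CSF receptor differed by little between DEP and control members. Csf2ra, a chain of the GM-CSF receptor, stood at 224 CPM in both DEP and control members, and Csf2rb, the other chain, at 348 and 387 CPM (-0.15 [-0.27 to -0.04]). Of 31 growth and lineage factors 14 were higher and 17 lower in DEP members, and none passed 1.5-fold. Immediate early and dissociation stress genes had no common direction. Among 24 counted, 10 were higher and 14 lower in DEP members (median -0.07), with 2 past 1.5-fold higher and none past it lower. Past 1.5-fold among all 9821 genes with at least 20 UMIs were 42 higher and 91 lower. Dusp1, at 415 and 582 CPM (-0.49), and Fos, at 634 and 772 CPM (-0.28), were among the lower ones. Cdkn1a, a cell cycle inhibitor, stood at 431 CPM in DEP members and 616 CPM in control members (-0.51 [-0.61 to -0.42]). Oxidative phosphorylation genes were slightly higher, 30 of 38 against 37.4% of all genes, with a median of 0.08 in members and in chemokine-high barcodes alike. In the plot of list medians the cell cycle list stands far to the left of the rest, with dendritic cell markers farthest to the right.

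**Figure D4:**
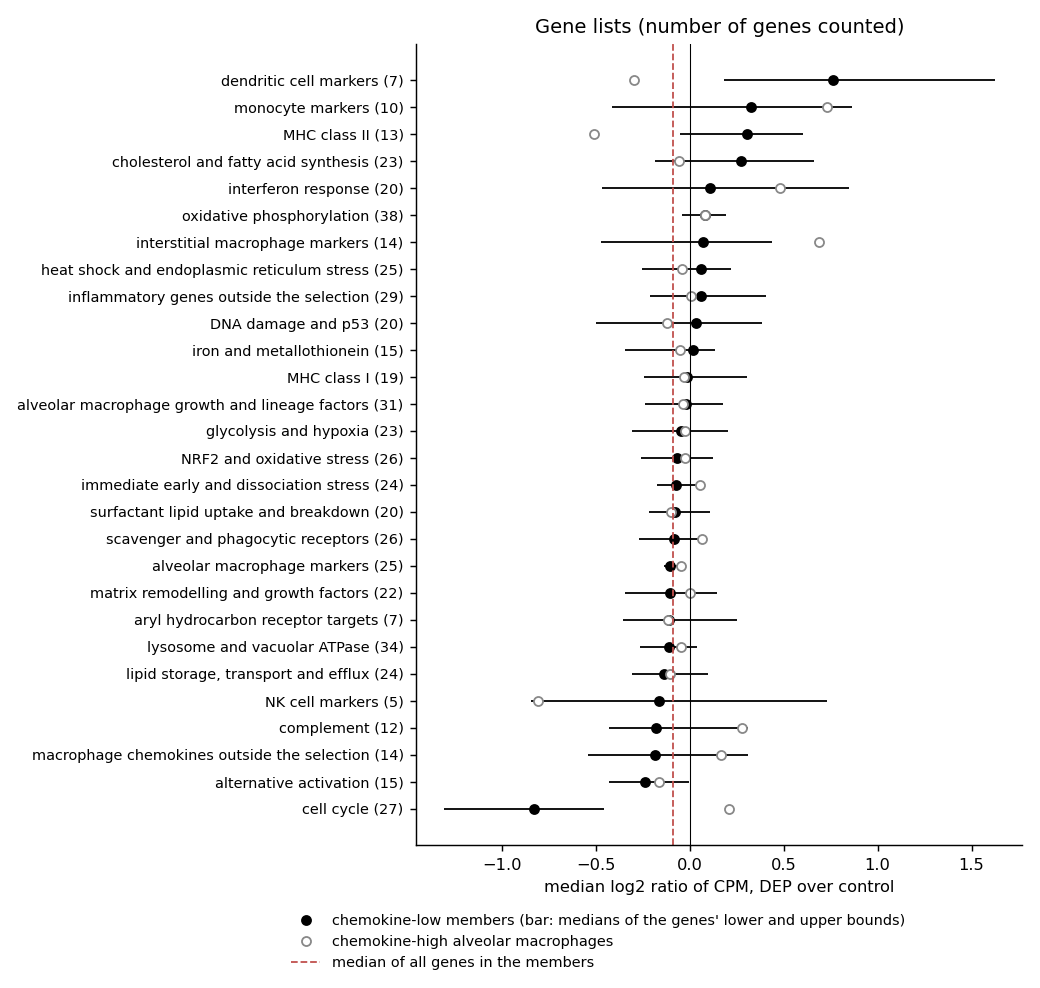
Median log2 ratio of CPM, DEP over control, of each gene list with at least 5 counted genes in members (filled, bars from the median of the genes' lower bounds to that of their upper bounds) and in chemokine-high barcodes (open), with the number of genes counted in brackets and the median of all genes dashed. Most lists lie near the dashed line, the cell cycle list is at -0.83 and dendritic cell markers are at 0.76.

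The remaining higher genes named by size lay in few barcodes, with 1 exception. Cxcl9, a chemokine that draws T cells, had 208 UMIs in DEP members and 13 in control members, and 95.2% of the DEP UMIs lay in 1 barcode, without which the log2 ratio was -0.36. Ccl17, a chemokine that binds CCR4, had 438 UMIs or 101 CPM in DEP members and 129 UMIs or 47.3 CPM in control members (1.09 [0.81 to 1.39]), with 80.6% of the control UMIs in 1 barcode. The log2 ratio of Ccl17 was 2.90 without the richest barcode of each library and -0.35 at a chemokine limit of 0.05%. Fnbp1l, which shapes membranes for uptake, had 56 UMIs in 7.34% of DEP members and 8 UMIs in 4.70% of control members (2.06 [1.06 to 3.42]). Cx3cr1, the fractalkine receptor typical of monocytes and interstitial macrophages, had 112 UMIs in 9.27% of DEP members and 30 in 6.71% of control members (1.21 [0.64 to 1.86]), and its log2 ratio was 2.14 without the members richest in other markers and 3.60 with MHC class II genes left out of them. These genes were absent from most members in both libraries.

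AY036118, annotated as a noncoding RNA, was the exception. Its locus, chr17:39847113-39848035 on the minus strand of mm10, lies inside that of Gm42418, chr17:39846958-39848788 on the plus strand, and whether counting used strand is not given in the sources used here. Without strand, reads of the pair cannot be told apart. AY036118 stood at 368 CPM [350 to 386] in DEP members and 210 CPM [193 to 228] in control members (0.81 [0.67 to 0.95]), and was found in 81.9% of DEP members and 73.8% of control members. It was also higher in the DEP library in chemokine-high barcodes (0.89) and outside the alveolar macrophages, at 224 against 124 CPM. Gm42418, among the most abundant genes of the members, stood at 22047 CPM in DEP members and 17598 CPM in control members (0.33 [0.31 to 0.34]) and had a ratio of 0.27 in chemokine-high barcodes. Malat1, a nuclear noncoding RNA, stood at 11169 CPM in DEP members and 7812 CPM in control members (0.52 [0.49 to 0.54]). It was also higher in the DEP library in chemokine-high barcodes (0.32) and outside the alveolar macrophages, at 20191 against 18019 CPM. The median mitochondrial share of members, given above, was nearly equal in the libraries.

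**Figure D5:**
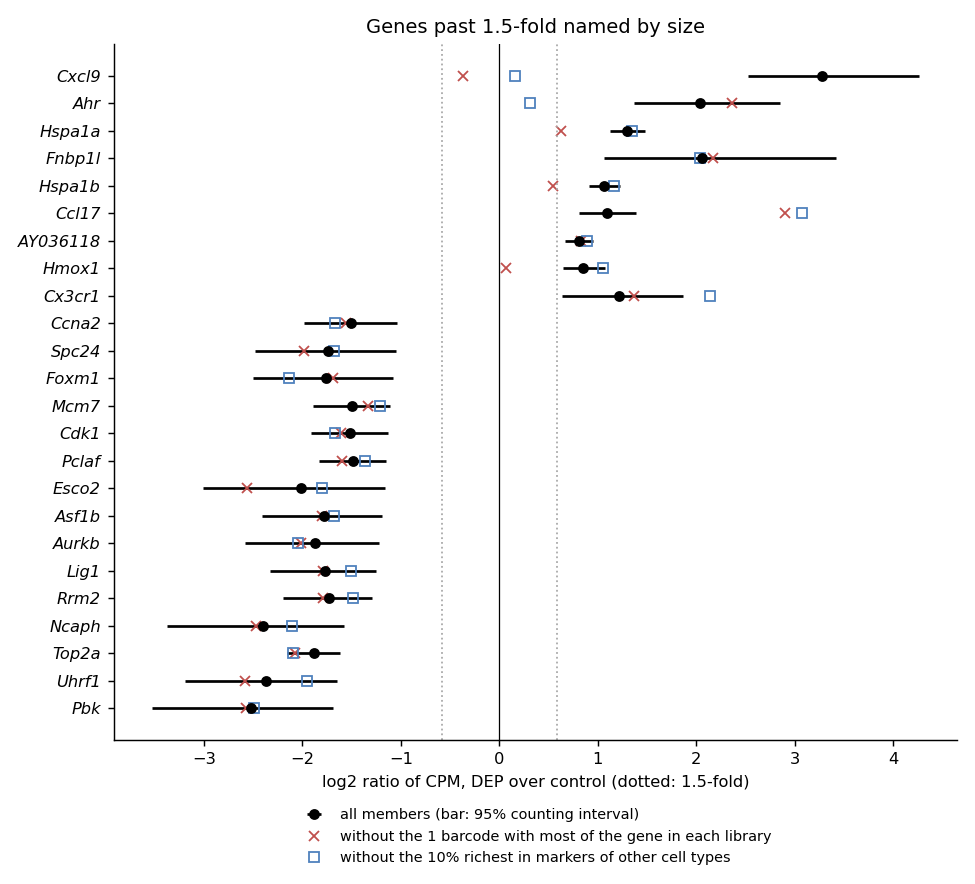
Log2 ratio of CPM, DEP over control, of the 9 higher and 15 lower genes named by size (filled, with 95% counting intervals), the same without the 1 barcode richest in the gene in each library (crosses), and without the 10% of members richest in markers of other cell types (squares), with 1.5-fold dotted. Cxcl9 moves to -0.36 and Hmox1 to 0.07 without 1 barcode, while the 15 lower genes stay left of the dotted line under both.

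Beyond the genes of the selection, the members differed from chemokine-high barcodes in both libraries, which is given as a description because the limit splits these cells on related genes. Nfkbia stood at 877 CPM in members and 2600 CPM in chemokine-high barcodes of the DEP library, and at 926 and 2524 CPM in the control library. Tnfaip3, which restrains NF-κB, stood at 125 and 426 CPM in the DEP library and 144 and 533 CPM in the control library, and Cxcl10, an interferon-induced chemokine, at 25.8 and 175 CPM and at 36.3 and 176 CPM. Higher in members were Id1, an inhibitor of differentiation factors, at 90.7 against 41.8 CPM in the DEP library and 84.7 against 47.3 CPM in the control library, and Gadd45g, a stress sensor, at 187 against 101 CPM and 168 against 92.8 CPM. These genes were picked after their values were seen.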

How the data were processed

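UMI counts per gene and barcode were deposited by the authors as raw whole-number counts, 1 table per library, with 31053 genes. Per the submitters' processing notes they were made with Cell Ranger 3.1.3 on mm10, while the file headers name version 3.1.0. Members, gene lists and limits were chosen with earlier results of these data known. Members' UMIs were summed per library and scaled to CPM. A log2 ratio adds 0.5 counts to each sum. Genes needed at least 50 UMIs, or at least 20 within a list, and genes of the selection were left out of counts and list medians.

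Genes named were drawn from the largest changes past 1.5-fold (up to 15 a direction), the lineage markers, those of the selection, the 20 most abundant, and the 3 most abundant and 3 most changed of each list. Not every gene of the lineage markers, of the 20 most abundant or of the lists' picks is named. Birc5, Mki67, Csf2ra, Csf2rb, Scd1, Tiparp, Id1, Gadd45g, Cxcl10 and Tnfaip3 were added after their values were seen. Ribosomal, mitochondrial and sex-linked genes were not named as changes. Doublets were scored by simulated neighbours. The highest-scoring barcodes (706 DEP, 751 control), among them 8 DEP and 3 control members, were kept and left out in an alternative. B cells had at least 2 Cd79a UMIs, no selection marker and no Cd3e. The calculation was checked on simulated counts. Python 3.11.15, numpy 2.4.6, scipy 1.17.1, pandas 2.3.3 and scikit-learn 1.9.0 were used. Promoters are RefSeq windows (GRCm38.p6).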

Additional observations from a re-analysis of the deposited data

Results flagged for a closer look

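In 3 lists, medians lay on opposite sides of 0 and far apart in chemokine-low and chemokine-high barcodes. Other lists also had medians on opposite sides of 0, but closer together. Among these were complement, at -0.18 in members and 0.28 in chemokine-high barcodes, and cholesterol and fatty acid synthesis, at 0.27 and -0.06. The cell cycle list had a median log2 ratio, DEP over control, of -0.83 in members and 0.21 in chemokine-high barcodes. The MHC class II list had 0.30 in members and -0.51 in chemokine-high barcodes. Dendritic cell markers had 0.76 in members and -0.29 in chemokine-high barcodes. In members the dendritic cell median was 0.17 without likely doublets, 0.00054 without the deepest 5% and -0.18 at a chemokine limit of 0.05%. With 1 library per group, none of these differences was tested.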

How the results depend on the processing

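With 1 library per group no replicate could be left out. No paired analysis was possible because the labels give 1 sample per group. The DEP over control ratio of the members' share stayed between 1.7 and 2.14 under the alternatives that kept a chemokine limit, and was 1.57 for all alveolar macrophages with none.

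Of the counts of genes past 1.5-fold, 31 higher and 62 lower, the higher count was 19 without likely doublets, 19 at a chemokine limit of 0.2%, 5 among barcodes with at most 2 UMIs of other cell types' markers, 12 without the 10% of members richest in those markers, 20 with MHC class II genes left out of those markers, 48 with a minimum of 1 UMI, 49 without the barcode richest in each gene and 10 at 2-fold. The lower count was 35 at the 0.2% limit, 2 with at most 2 other UMIs, 10 among members with no cycling UMI, 19 with no chemokine limit, 27 with a minimum of 100 UMIs, 105 with a minimum of 1 and 17 at 2-fold. Median-of-ratios scaling gave 42 and 45.

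List medians moved as follows. For the cell cycle list the median was 0.15 with no cycling UMI, -1.63 at a 0.05% limit and -0.35 with no limit. For MHC class II it was -0.11, -0.10 and -0.14 at the 0.05% limit, without the richest 10% and with no limit. For dendritic cell markers it was -0.18 at 0.05%, 0.17 without doublets, 1.96 at a marker minimum of 20, 0.00054 without the deepest 5% and 0.10 with no limit. For interstitial macrophage markers it was 0.90 at 0.05%, -0.51 without the deepest 5%, -0.72 with no cycling UMI, 0.67 without the 10% richest in markers outside MHC class II, and 1.59 without the richest barcode per gene, which also gave 0.40 for other chemokines and 1.02 for monocyte markers. Alveolar macrophage markers gave 0.021 at 0.05% and -0.021 under median-of-ratios scaling, and NK markers -1.05 with barcodes weighted alike. With at most 2 other UMIs, which left 13 DEP and 7 control members, immediate early genes gave -0.41, inflammatory genes -0.30, iron genes 0.44, lipid storage genes -0.44 and scavenger genes 0.29. The cause was not tested, apart from the removal of cycling barcodes, which takes out the genes' own UMIs.

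Single genes reversed as follows. With at most 2 other UMIs, AY036118 gave -0.058, Hspa1a -3.92, Il1b -1.28, Lig1 0.47, Mcm7 0.47, Rrm2 1.21, Thbs1 -2.70 and Trbc2 0.47. With no cycling UMI, Aurkb gave 0.38, Ccna2 0.74, Mcm7 0.050, Ncaph 0.53, Spc24 3.06, Uhrf1 0.74 and Thbs1 -0.39. At 0.05%, Ccl17 gave -0.35, Hmox1 -0.14 and Stab1 1.47. With no limit, Esco2 gave 0.19, Pclaf 0.16 and Stab1 0.15. Without the richest barcode, Cxcl9 gave -0.36, Folr2 0.92 and Stab1 1.65. Without the richest 10%, Ccl12 gave 0.025 and Thbs1 -0.40, and with MHC class II genes left out of the markers Cxcl9 gave -0.12, Ms4a4c -0.90, Itgam -0.27, Ptgs2 -0.23, Ccl12 0.045 and Thbs1 -0.060. The settings that drop the richest 10%, the stress-rich barcode or the chemokine limit were added after the data were seen. Over all members, the genes not described above had log2 ratios of 0.96 (Thbs1), 1.47 (Ms4a4c), 1.50 (Itgam), -2.43 (Trbc2), -1.36 (Stab1), -1.83 (Folr2) and -3.16 (Ccl12).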
